A study of Mus musculus with 39 samples.

Results

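Binding of the estrogen receptor (ER) to chromatin in 7438 mouse mammary cells with Afos was compared between cells given dexamethasone together with estradiol (Dex+E2) and cells given estradiol alone (E2). The comparison rests on lists of called ER sites from chromatin immunoprecipitation with sequencing (ChIP-seq), 2 for Dex+E2 and 2 for E2, chosen by sample label. They are 4 of the 39 samples of the series, of which 24 had a list of called sites and 16 of those came from 7438 Afos. The Dex+E2 lists held 5905 and 2564 sites, and the E2 lists 6046 and 4687 sites, in replicates 1 and 2.

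Per the labels, all 4 samples came from cells that express GR fused to GFP, ER fused to Cherry, and Afos, each under a tetracycline-regulated promoter. The receptors are thus tagged and switched on by withdrawal of tetracycline, which was done a day before the hormones. Each hormone was given at 100 nM for 30 min, in medium with charcoal-treated serum. ER was precipitated with a mixture of antibodies. The labels do not say whether the line is 1 clone, nor whether the replicates came from separate cultures, so the p-values given here measure the spread between these lists, which may be technical. Site lists hold no expression values, so the cell type itself could not be checked against marker genes.

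ER and the glucocorticoid receptor (GR) are steroid-activated transcription factors. Once hormone is bound, they attach to DNA at response elements, or through other proteins already on chromatin, and change transcription of nearby genes. Estradiol is the natural ligand of ER and dexamethasone a synthetic ligand of GR, so E2 cells had only the ER ligand and Dex+E2 cells had both. The labels do not explain the name Afos; an engineered A-Fos is used elsewhere to hold AP-1, a factor whose sites both receptors are known to use, away from DNA. The question addressed here is how ER sites differ when GR is activated in the same cells.

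A site is described by its position, its width and its highest tag density, which is the authors' measure of how many reads pile up at the top of the site. How the density was scaled is not stated, and read totals are not in the lists, so sequencing depth is unknown. Density was therefore ranked within its own list and is given as a percentile, where 100 is the strongest site of that list. The median highest tag density was 14.8 and 11.2 in the Dex+E2 lists, against 16.4 and 15.0 in the E2 lists. The median width was 567 and 523 bp in the Dex+E2 lists, against 572 and 568 bp in the E2 lists, and no site was narrower than 251 bp. Strong sites were also wide in every list, with a Spearman rho between density and width across the sites of a list from 0.793 to 0.843. ER lists from 7438 Afos cells without estradiol, untreated or with Dex alone, held between 35 and 61 sites. The lengths of the Dex+E2 and E2 lists overlapped, at 4234.5 ± 2362 against 5366.5 ± 961 sites (mean ± SD, n = 2 each; two-sided exact permutation p = 0.667). With 2 lists a treatment such a test cannot give a p below 0.333.

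Sites of the 4 lists that overlapped by at least 1 bp were joined into 8988 regions. A region in all 4 lists is called shared, and there were 1661 shared regions (18.5%). Both Dex+E2 lists but neither E2 list held 577 regions (6.42%), and both E2 lists but neither Dex+E2 list held 1325 (14.7%). Replicate 2 with Dex+E2, the shortest list, shaped this division. As many as 1255 regions were in both E2 lists and in Dex+E2 replicate 1 but not in Dex+E2 replicate 2, against 28 regions missing from Dex+E2 replicate 1 alone. Regions found in a single list numbered 1860 and 119 for Dex+E2 replicates 1 and 2, and 1309 and 298 for E2 replicates 1 and 2.

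The top of the lists was largely common to the treatments, and the bottom was not. Of the strongest 10% of sites, 89.3% in Dex+E2 replicate 1 and 92.6% in Dex+E2 replicate 2 were found in the same-numbered E2 list. The same share for the E2 lists, looked up in the same-numbered Dex+E2 list, was 99.0% and 92.8%. In the weakest 10% the shares were 33.4% and 45.5% for the Dex+E2 lists, against 25.5% and 15.2% for the E2 lists. The other replicate of the same treatment held between 99.2% and 100% of the strongest 10% of each list. In the weakest 10% it held only 7.45% and 64.7% for the Dex+E2 lists and 27.6% and 70.6% for the E2 lists, so weak sites were also often missing between replicates. Weak sites were thus found less often than strong ones in both kinds of comparison.

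**Figure D1:**
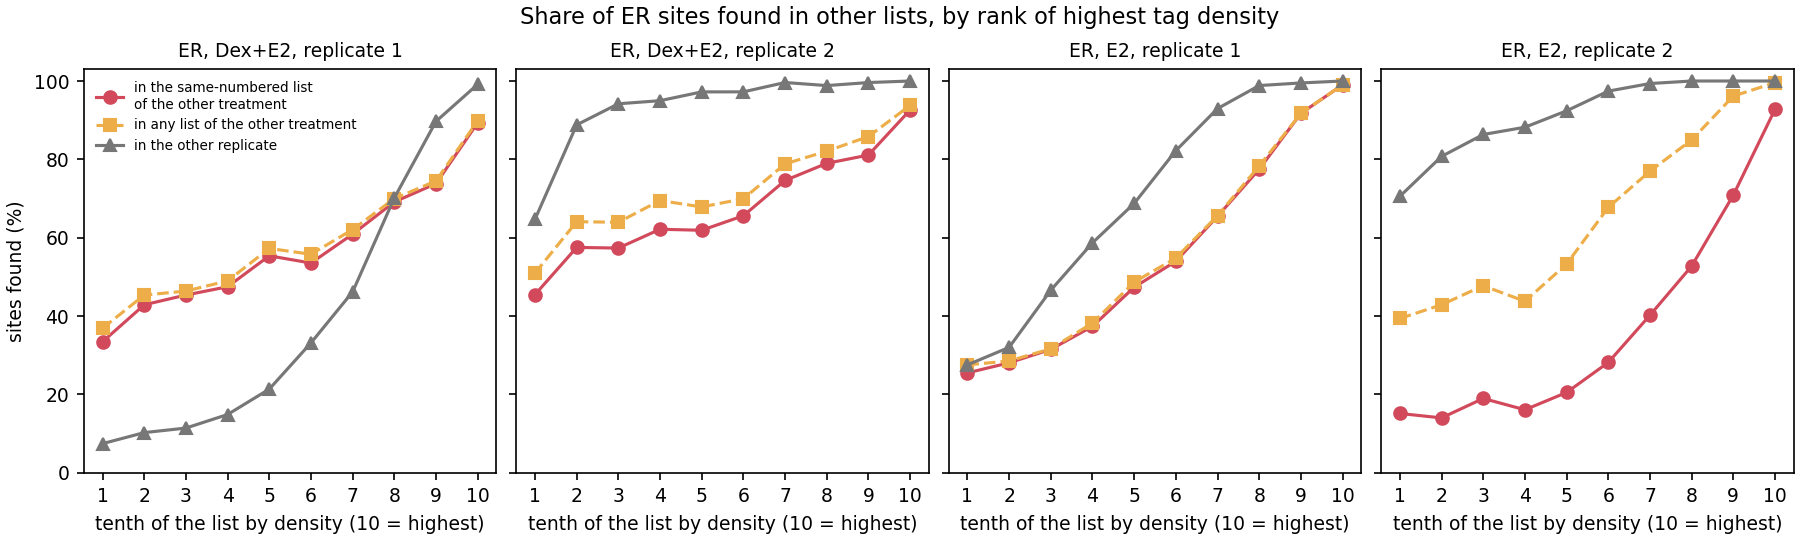
Share of the sites of each ER list (vertical axis, percent) that were found in other lists, by class of 10% of the list ranked by highest tag density (horizontal axis, 10 is the strongest), with 1 panel a list. In the strongest class 89.3% and 92.6% of Dex+E2 sites and 99.0% and 92.8% of E2 sites were in the same-numbered list of the other treatment (circles), against 99.2% to 100% in the other replicate (triangles).

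The strongest sites were also compared in equal numbers, so that list length could not differ. Of the strongest 500 sites of a list, between 56% and 59.4% were among the strongest 500 of a list of the other treatment, over the 4 pairs of lists. Within a treatment the share was 77.8% and 78.2% for the Dex+E2 pair, read in each direction, and 81.2% for the E2 pair. With the strongest 1000 sites the shares were 54.3% to 57.9% between treatments, against 75.6% and 76.1% within Dex+E2 and 85.1% within E2. With 2500 sites they were 54.1% to 57.6% between treatments, against 74.4% and 74.9% within Dex+E2 and 83.4% within E2. At each of these sizes every share between treatments was below every share within a treatment.

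Sites found in one treatment only ranked low in their lists. In Dex+E2 replicate 1, 2437 sites (41.3%, exact binomial 95% interval 40.0 to 42.5%, which covers counting error only) were in neither E2 list. In Dex+E2 replicate 2 these were 700 sites (27.3%, 25.6 to 29.1%). In the E2 lists, 2634 sites of replicate 1 (43.6%, 42.3 to 44.8%) and 1629 of replicate 2 (34.8%, 33.4 to 36.1%) were in neither Dex+E2 list. The shares averaged 34.3 ± 9.88% for Dex+E2 and 39.2 ± 6.23% for E2 (SD, n = 2 each; exact permutation p = 0.667), a difference smaller than the spread between replicates. With equal numbers of sites from each list the order turned, at 40.5% for Dex+E2 and 35.8% for E2. Without Dex+E2 replicate 1, 66.5% of E2 sites had no counterpart, so the E2 share depended on that list.

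Their ranks differed somewhat more between the treatments. The median percentile of sites in neither list of the other treatment was 36.7 and 35.6 in the Dex+E2 lists, against 30.9 and 30.7 in the E2 lists. Sites that did have a counterpart stood at 60.6 and 56.7 in the Dex+E2 lists, against 68.2 and 64.2 in the E2 lists. The difference of sites of one treatment only from the others averaged -22.5 ± 1.98 percentile points with Dex+E2 and -35.4 ± 2.68 with E2 (SD, n = 2 each). Both Dex+E2 values lay above both E2 values, and the two-sided exact permutation p was 0.333, the smallest that 2 lists a treatment allow. With as many of the strongest sites taken from each list as the shortest one held, the averages were -18.9 points for Dex+E2 and -17.7 for E2, so the order of the treatments did not hold at equal list length.

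Dex+E2 lists held more strong sites without a counterpart. Of these sites 60 and 16 were in the strongest 10% of the Dex+E2 lists, against 6 and 2 in the strongest 10% of the E2 lists. They made up 10.2% and 6.23% of that part of the Dex+E2 lists, against 0.992% and 0.426% for E2. These counts were not taken at equal list length. The part of a list above percentile 75 held 12.1% and 10.6% of the Dex+E2 sites without a counterpart, against 4.10% and 3.19% of the E2 ones. The part up to percentile 25 held 34.8% and 38.4% of them for Dex+E2, against 41.2% and 41.7% for E2. The strongest such site had a density of 96.3 and 34.5 at its highest in the Dex+E2 lists, against 60.2 and 43.4 in the E2 lists. Sites without a counterpart were also narrow, with median widths of 522 and 461 bp in the Dex+E2 lists and 501 and 485 bp in the E2 lists, where the remaining sites measured 602 and 547 bp with Dex+E2 and 632 and 613 bp with E2.

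Sites seen in both replicates of one treatment and in neither list of the other stood higher in some lists than in others. The 577 regions of Dex+E2 alone had a median percentile of 70.6 in replicate 1 and 41.0 in replicate 2. The 1325 regions of E2 alone had a median percentile of 44.5 in replicate 1 and 33.5 in replicate 2. Averaged over the lists these values were 55.8 ± 20.9 for Dex+E2 and 39.0 ± 7.81 for E2 (SD, n = 2 each; exact permutation p = 0.667). The high value of Dex+E2 replicate 1 stands beside the short list of replicate 2, which any such region also had to enter. Sites in one list and in no other were the weakest, with median percentiles of 29.6 and 6.01 in the Dex+E2 lists and 19.9 and 16.5 in the E2 lists.

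**Figure D2:**
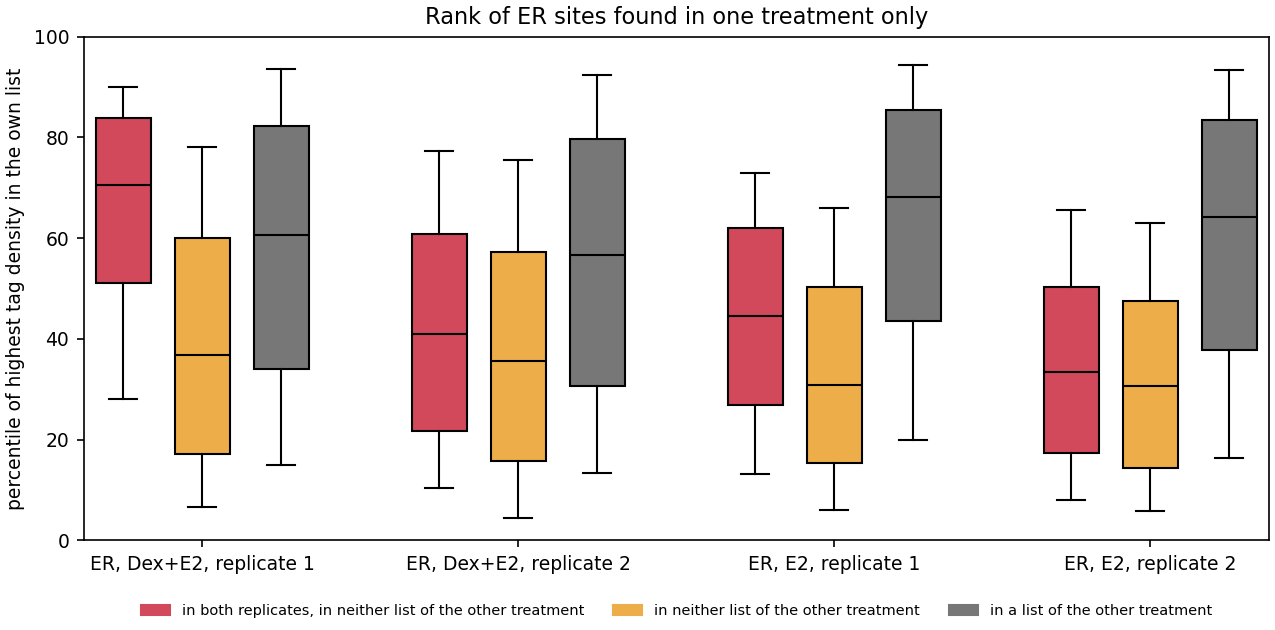
Percentile of highest tag density in the own list (vertical axis) for 3 classes of ER sites in each of the 4 lists; boxes span the quartiles with the median as a line, and whiskers run to the 10th and 90th percentiles. Sites in neither list of the other treatment had medians of 36.7 and 35.6 in the Dex+E2 lists and 30.9 and 30.7 in the E2 lists, below the sites with a counterpart, and the reproducible Dex+E2 sites stood at 70.6 in replicate 1.

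The leading regions of Dex+E2 alone were strong ER sites with no called E2 counterpart. Coordinates are those of the lists in build mm9; whether they count the first base as 0 or 1 is not stated, and gene annotation in that build was not used here. At chr17:28649424-28650418 the highest tag density was 96.3 and 33.9 with Dex+E2, at percentiles 98.9 and 95.9. The region at chr5:112309195-112309954 had 72.3 and 34.5 with Dex+E2, and chr9:43655663-43656466 had 75.4 and 32.1. GR was called at all 3 in both Dex lists, most strongly at the chromosome 17 region, where GR density was 621 and 360 with Dex alone. The other two of the 5 leading regions were chr11:95547271-95548005, at 69.8 and 32.7, and chr6:6191918-6192735, at 72.5 and 31.9. GR was called in both Dex+E2 lists at both of these, and in the Dex lists at the chromosome 6 region but not at the chromosome 11 region.

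The leading regions of E2 alone were weaker within their lists and had little GR. At chr15:77713063-77713808 the density was 52.2 and 43.4 with E2, at percentiles 91.7 and 92.5, and chr15:99415948-99416734 had 51.4 and 38.3. The regions at chr12:17006741-17007535 (49.0 and 34.0), chr15:81758527-81759336 (53.2 and 30.7) and chr11:117840566-117841271 (40.5 and 36.7) completed the 5. No GR site was called in a Dex or Dex+E2 list at 3 of the 5, and the others had GR in a single Dex+E2 list, at a density of 9.91 and 11.3. These 10 regions were picked for their rank, so their strength is a description.

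Shared sites were strong sites. The 1661 shared regions made up 28.1% and 64.8% of the Dex+E2 lists, and 27.5% and 35.4% of the E2 lists. Their median percentile was 81.2 and 59.6 in the Dex+E2 lists, against 82.6 and 77.7 in the E2 lists. The low value of Dex+E2 replicate 2 belongs to the list of which shared sites were the majority. To compare treatments, log2 density was put on a common scale by quantile normalisation over the shared sites, so that a change is a change of order among them and not of total binding. Fewer cells with ER at a site and less ER per cell cannot be told apart in these samples.

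The 4 strongest shared sites, chosen by their mean percentile over all 4 lists, are given as a description. At chr6:147073266-147074231 the highest tag density was 369 and 124 with Dex+E2, against 445 and 259 with E2. This site was first in both Dex+E2 lists and second in both E2 lists, with a scaled change of 0.17 ± 0.22 (log2, SE). At chr6:66484638-66485556, first in both E2 lists, the densities were 309 and 112 with Dex+E2 against 532 and 282 with E2, a change of -0.24 ± 0.22. Next came chr8:124675429-124676637, with 297 and 120 with Dex+E2 against 369 and 232 with E2, and chr17:34347189-34348180, with 190 and 86.3 with Dex+E2 against 253 and 175 with E2. None of these 4 passed the limma test, with adjusted p from 0.470 to 0.848, and their widths lay between 805 and 1180 bp with Dex+E2, against 852 and 1187 bp with E2. GR was called in both Dex+E2 lists at all 4, and with Dex alone at the chromosome 17 site only.

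Among all shared sites the order differed more between treatments than between replicates. Spearman's rho for density across the 1661 sites was 0.628 between Dex+E2 and E2 in replicate 1 and 0.618 in replicate 2. It was 0.825 between the Dex+E2 replicates and 0.917 between the E2 replicates. The SD of the scaled log2 difference was 0.71 and 0.72 between treatments, against 0.48 within Dex+E2 and 0.34 within E2. A difference of more than 2-fold separated the treatments at 261 sites (15.7%) in replicate 1 and 254 (15.3%) in replicate 2, and separated replicates at 69 sites (4.15%) within Dex+E2 and 11 (0.662%) within E2. These values describe sites that share libraries and are given without a p.

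**Figure D3:**
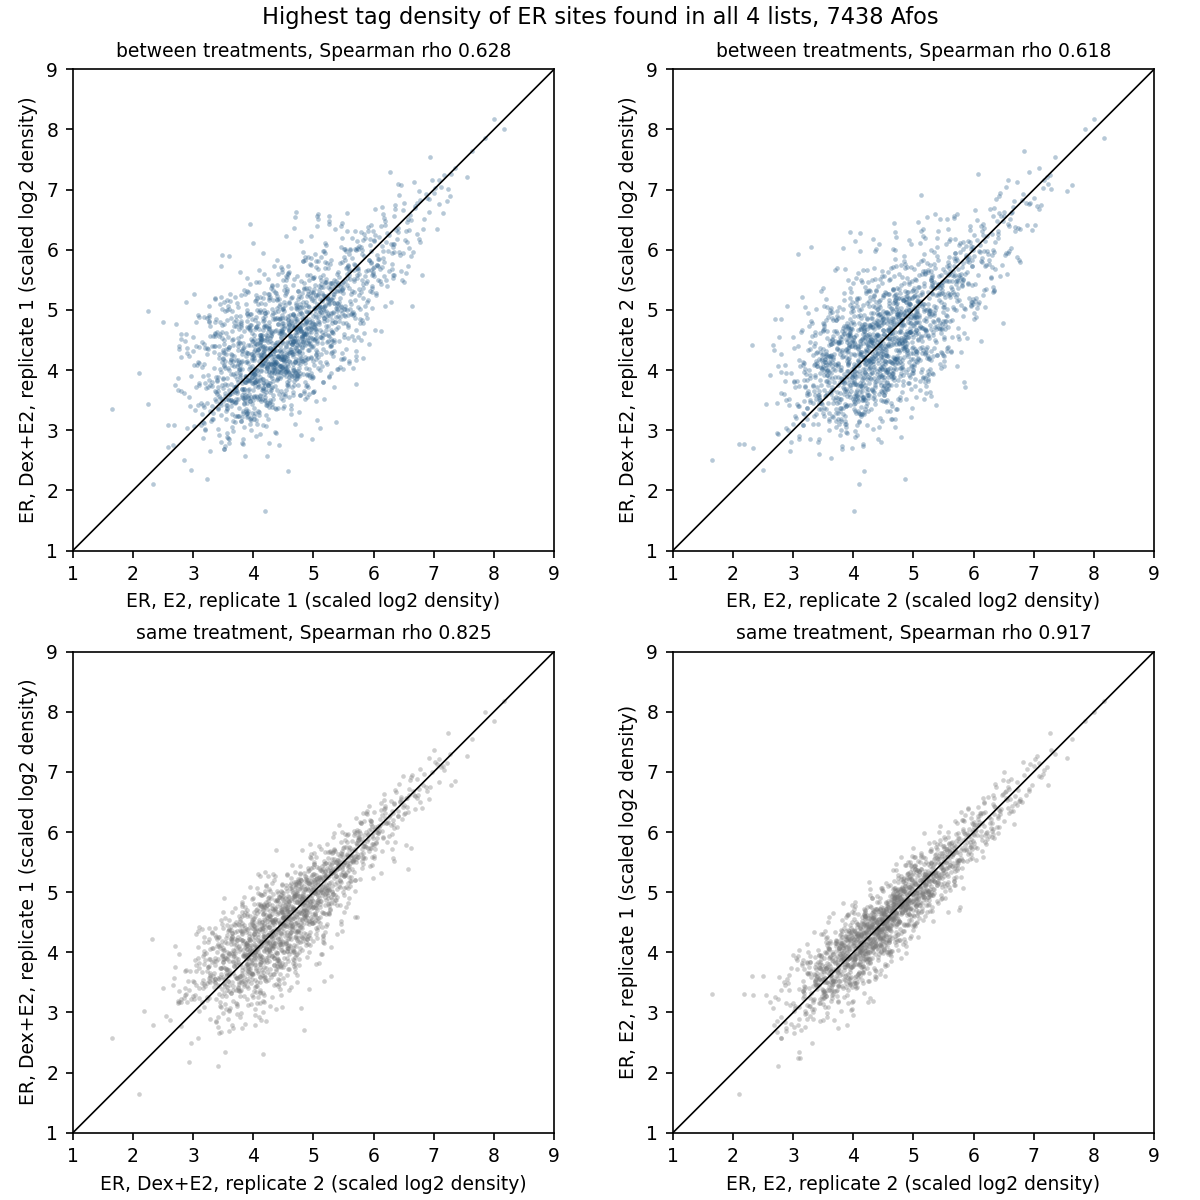
Highest tag density of the 1661 shared ER sites on the common log2 scale, each point a site and the line marking equal values; the upper panels set Dex+E2 (vertical) against E2 (horizontal) in replicates 1 and 2, and the lower panels set replicate 1 (vertical) against replicate 2 (horizontal) within Dex+E2 and within E2. The points scatter more widely between treatments (rho 0.628 and 0.618) than within Dex+E2 (0.825) or E2 (0.917).

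Density rose at 195 shared sites with Dex+E2 and fell at 152, by limma with Benjamini-Hochberg adjustment over all 1661 sites at 0.05. These are 11.7% of shared sites higher and 9.15% lower. The median scaled change was 1.15 (log2) over the sites that rose, with sizes from 0.75 to 2.67, and -1.02 over those that fell, with sizes from 0.74 to 2.37. Counting only whether groups overlapped, both Dex+E2 values lay above both E2 values at 471 sites (28.4% of all shared sites) and below both at 565 (34%). Without E2 replicate 1, 2 sites passed as higher and none as lower (198 and 155 at an unadjusted p under 0.05), and without E2 replicate 2, 7 passed as higher and 1 as lower. In these fits the lone E2 list was taken to vary like the Dex+E2 pair, which differed more between its replicates than the E2 pair did. Why the calls were lost was not tested. On whole-list percentiles in place of the common scale no site passed (80 higher and 133 lower at an unadjusted p under 0.05). All 347 called sites kept their direction in each of these fits. These fits reuse the lists from which the sites were called, so the kept direction is no separate support.

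The called sites were selected by these same densities, so their ranks describe the selection and are no separate finding. Sites that rose were middling in the E2 lists and stood higher with Dex+E2. Their median percentile was 91.5 and 78.6 in the Dex+E2 lists, against 60.5 and 49.7 in the E2 lists. Sites that fell stood high in the E2 lists, at 67.0 and 32.8 in the Dex+E2 lists, against 92.0 and 90.6 in the E2 lists. Sites without a call stood at 80.5 and 58.2 in the Dex+E2 lists, against 82.7 and 78.1 in the E2 lists.

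The largest rise was at chr4:40632252-40633391. When overlap of 50% of both sites was required, it was no shared region. Its widths were 1139 and 985 bp with Dex+E2, against 866 and 327 bp with E2. Its density was 101.2 and 30.1 with Dex+E2, against 20.5 and 8.38 with E2, and its percentile was 99.0 and 94.2 with Dex+E2, against 62.9 and 9.004 with E2. Both Dex+E2 lists thus had it near the top while the E2 replicates placed it far apart, and the scaled change was 2.67 ± 0.33 (log2, SE; limma adjusted p = 0.00700). At chr15:100122801-100123625 the density was 69.7 and 32.7 with Dex+E2, against 15.8 and 9.87 with E2, a change of 2.53 ± 0.23 (adjusted p = 0.00524). At chr1:90371295-90372468 it was 61.8 and 38.9 with Dex+E2, against 14.2 and 16.0 with E2, a change of 2.31 ± 0.28 (adjusted p = 0.00700). At both, the Dex+E2 percentiles were at or above 95.5 and the E2 percentiles at or below 54.5; named rises and falls were chosen among sites whose treatments do not overlap. At chr2:35123103-35124106 the density was 70.3 and 34.8 with Dex+E2, against 14.4 and 17.0 with E2, and at chr6:144644027-144644766 it was 80.1 and 38.2 with Dex+E2, against 21.7 and 18.0 with E2.

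All 5 of these sites also held GR in both Dex+E2 lists. With Dex alone GR was called in both lists at 3 of them. At the chromosome 4 site GR density was 251 and 114 with Dex+E2, and 126 and 41.5 with Dex. At the chromosome 15 and chromosome 6 sites no GR site was called with Dex alone, and GR density was 82.3 and 42.0, and 72.1 and 63.1, with Dex+E2. None of the 5 had a GR site in an E2 list.

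The largest falls were at sites in the upper part of the E2 lists, at percentiles from 57.3 to 94.7, where all shared sites had medians of 82.6 and 77.7. At chr9:114020612-114021656 the density was 9.50 and 2.04 with Dex+E2, against 53.6 and 32.0 with E2, and the percentile was 16.6 and 0.624 with Dex+E2, against 92.1 and 85.9 with E2. Its scaled change was -2.37 ± 0.31 (log2, SE; limma adjusted p = 0.00700). At chr9:13473195-13474491 the density was 3.54 and 2.02 with Dex+E2, against 25.4 and 17.8 with E2, a change of -2.26 ± 0.25 (adjusted p = 0.00629). Both were thus near the bottom of at least 1 Dex+E2 list. At chr10:42182435-42183669 the density was 7.78 and 1.78 with Dex+E2, against 26.1 and 16.7 with E2, and at chr5:140520342-140521141 it was 10.5 and 4.75 with Dex+E2, against 52.1 and 23.4 with E2. The fifth, chr3:31034831-31036098, had 10.3 and 8.24 with Dex+E2, against 65.7 and 35.3 with E2. Adjusted p for these 3 was 0.00906. At 50% reciprocal overlap 4 of the 5 falls, all but the chromosome 3 site, were no shared region, and neither was the chromosome 4 rise. Whether the sites joined there are the same peak was not tested. Refits reuse the lists from which the named sites were chosen, so a kept direction there is no separate support. Of the 10 rises and falls named, 8 no longer passed without E2 replicate 1 and 5 no longer passed without E2 replicate 2, with their direction kept.

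In the Dex and Dex+E2 lists GR was weak or not called at the 5 falls. No Dex list had a GR site at any of them. In Dex+E2 lists GR was called in both at the first chromosome 9 site, at a density of 6.07 and 5.06, and in 1 at the chromosome 5 site, at 7.02. The E2 lists of GR, short as they were, had a GR site at all 5 in at least 1 replicate, at densities from 4.41 to 13.8.

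**Figure D4:**
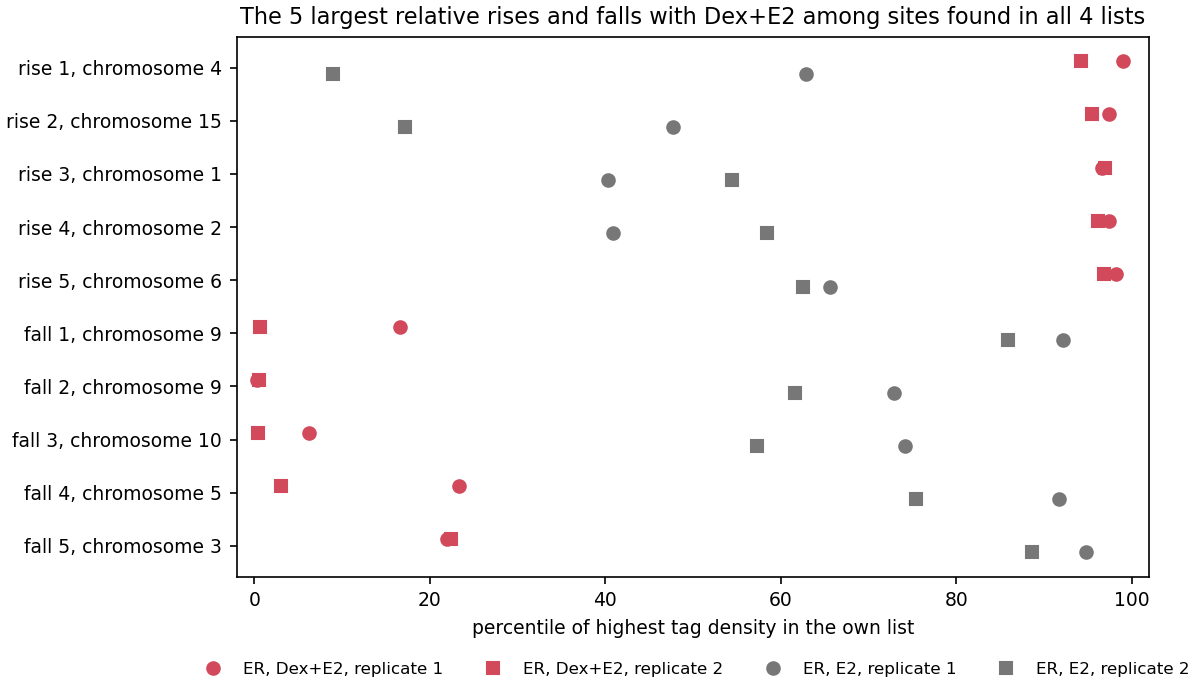
Percentile of highest tag density in the own list (horizontal axis) for the 5 largest rises and the 5 largest falls among shared ER sites, with Dex+E2 lists in red and E2 lists in grey, circles for replicate 1 and squares for replicate 2. Dex+E2 points of the rises lie at or above 94.2 and those of the falls at or below 23.3.

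Width moved with density. The shared sites were narrower with Dex+E2 than with E2 by a median of 17 bp in replicate 1 and 113 bp in replicate 2, a log2 change of -0.03 and -0.26. Of the 1661 sites, 42.3% were wider with Dex+E2 in replicate 1 and 17.6% in replicate 2. Replicate 2 with Dex+E2 was also narrower than replicate 1 of the same treatment, where 94.7% of the sites were wider in replicate 1. The median width of shared sites was 691 and 557 bp in the Dex+E2 lists, against 698 and 668 bp in the E2 lists (624 ± 94.8 against 683 ± 21.2 bp, SD, n = 2 each; exact permutation p = 0.667). Spearman's rho for width was 0.566 and 0.497 between treatments, against 0.686 within Dex+E2 and 0.843 within E2.

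No shared site changed in width past the threshold (limma, 0% called higher and 0% called lower; 31 wider and 77 narrower at an unadjusted p under 0.05). Both Dex+E2 widths lay above both E2 widths at 142 sites (8.55%) and below both at 633 (38.1%). Without Dex+E2 replicate 1, which leaves the narrower Dex+E2 list, 16 sites were called wider and 450 narrower. In that fit the spread came from the E2 pair alone, and the lone Dex+E2 list was taken to vary like it. The change in width followed the change in density across sites, with a Spearman rho of 0.744 in replicate 1 and 0.725 in replicate 2. Differences between replicates of one treatment were related in the same way, with a rho of 0.487 within Dex+E2 and 0.426 within E2. Of the 195 sites whose density rose, 183 (93.8%) were wider with Dex+E2 by the mean of the log2 widths, and of the 152 whose density fell, 1 was (0.658%). The share was 18.0% among sites without a call. Sites that rose measured 756 and 644 bp with Dex+E2, against 596 and 560 bp with E2, and sites that fell 657 and 485 bp with Dex+E2, against 775.5 and 745.5 bp with E2. Density and width come from the same reads, so width is not a second measurement of the same change.

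The greatest widening was at chr5:112310247-112311204, with 957 and 703 bp with Dex+E2 against 259 and 318 bp with E2 (limma adjusted p = 0.251). It lies next to the chromosome 5 region of Dex+E2 alone described above, which had no E2 site. The next, chr8:11381466-11382750, had 1284 and 979 bp with Dex+E2 against 423 and 467 bp with E2, and was among the strong GR sites, with a GR density of 368 and 223 with Dex alone. The greatest narrowing was at chr9:13473195-13474491, one of the large falls in density, with 443 and 251 bp with Dex+E2 against 1296 and 1185 bp with E2. At chr17:48358954-48361432 the widths were 784 and 265 bp with Dex+E2 against 2478 and 803 bp with E2. Widths at these 4 sites did not overlap between treatments, and none passed the test. Sites were joined by overlap of at least 1 bp, and 251 bp was the narrowest width in the lists. The chromosome 9 site was no shared region at 50% reciprocal overlap. Whether the wide and narrow sites joined in these regions are the same peak was not tested.

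By the median, ER density was higher with Dex+E2 at shared sites where GR bound with Dex alone. It was lower where no Dex or Dex+E2 list had a GR site. GR sites of 7438 Afos cells were taken from their own lists, 2 with Dex and 2 with Dex+E2, and played no part in choosing the shared ER sites. At the 203 shared ER sites with GR in both Dex lists, the median scaled change in ER density was 0.63 (log2), with 0.63 in replicate 1 and 0.56 in replicate 2. At the 795 sites with GR in both Dex+E2 lists and no Dex list it was 0.05, and at the 181 sites with no GR site in any of the 4 lists it was -0.44. The remaining 482 sites, with GR in some of these lists, had a median change of -0.26. The GR lists of E2-treated cells did not enter these classes, so a site with no GR here may hold GR with E2. Over all shared sites the median was -0.05, with quartiles at -0.44 and 0.38.

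The calls followed the same order. Of the 203 sites with GR in both Dex lists, 84 rose (41.4%) and 2 fell (0.985%), against 11.7% and 9.15% of all shared sites. Of the 795 sites with GR in both Dex+E2 lists and no Dex list, 93 rose (11.7%) and 47 fell (5.91%). Of the 181 sites with GR in no Dex or Dex+E2 list, none rose and 34 fell (18.8%). The median ER percentile at the sites with GR in both Dex lists was 91.6 and 79.2 in the Dex+E2 lists, against 78.9 and 77.0 in the E2 lists. At the sites with GR in no Dex or Dex+E2 list it was 51.7 and 33.9 in the Dex+E2 lists, against 72.9 and 72.1 in the E2 lists.

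The median change at the 203 sites exceeded that at the other 1458 shared sites by 0.74 (log2), by 0.77 in replicate 1 and by 0.64 in replicate 2 (0.71 ± 0.09, SD, n = 2). Between replicates of one treatment the same difference was -0.03 for Dex+E2 and -0.12 for E2. Leaving out any 1 list gave 0.66 to 0.82. When only the stronger sites of each list were used, from its median density upward, it was 0.46. No test over sites was run, since sites of one library are not replicates.

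**Figure D5:**
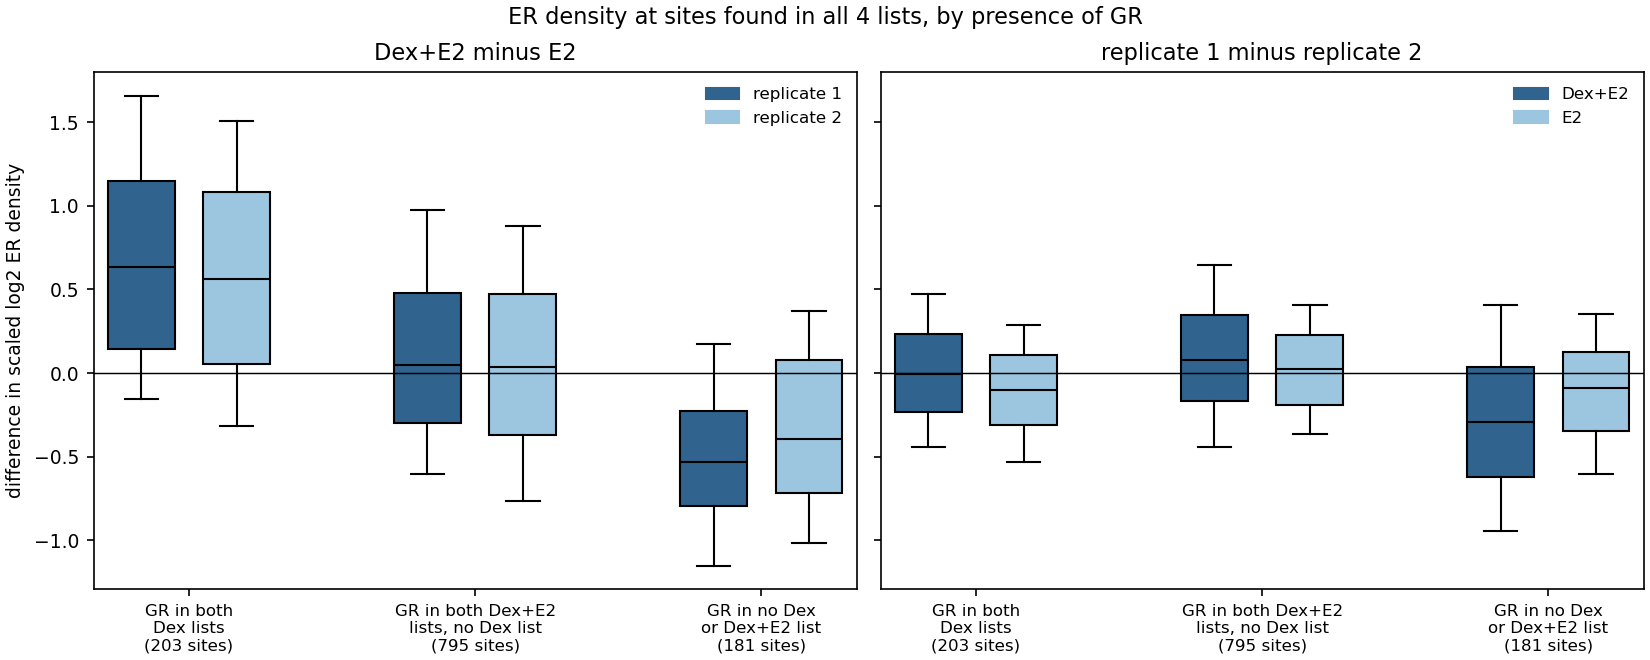
Difference in scaled log2 ER density (vertical axis) at shared ER sites by presence of GR; the left panel gives Dex+E2 minus E2 in replicates 1 and 2, and the right panel replicate 1 minus replicate 2 within Dex+E2 and within E2, with boxes for the quartiles, a line for the median and whiskers to the 10th and 90th percentiles. Medians of Dex+E2 minus E2 were 0.63 and 0.56 where GR was in both Dex lists. They were 0.05 and 0.04 where it was in both Dex+E2 lists and no Dex list. Where no Dex or Dex+E2 list had GR they were -0.53 and -0.40.

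The order of the GR classes was also read within classes of ER strength. Shared sites were divided into 3 equal classes by their mean percentile over the 4 lists, a division added after the data were seen. In the weakest class the median change was 0.74 at 48 sites with GR in both Dex lists. It was 0.31 at 193 sites with GR in both Dex+E2 lists and no Dex list. At 113 sites with GR in no Dex or Dex+E2 list it was -0.42. In the same order, the middle class had 0.77, 0.06 and -0.52. The strongest class had 0.46, -0.05 and -0.64, with only 17 sites with GR in no Dex or Dex+E2 list. The order of the 3 classes was the same in each class of strength.

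The change in ER was more positive where GR was stronger in the Dex+E2 lists, and less clearly so in the Dex lists. Across the 1478 shared sites with a GR site in Dex+E2 replicate 1, Spearman's rho between GR rank and the ER change was 0.510, and across the 1076 in Dex+E2 replicate 2 it was 0.400. Over 4 equal classes of GR sites in replicate 1, weakest first, the median ER change was -0.34, -0.12, 0.14 and 0.48. In replicate 2 it was -0.11, 0.04, 0.20 and 0.52. With Dex alone rho was 0.299 over 282 sites in replicate 1 and 0.161 over 203 sites in replicate 2, where the 4 classes were not in order (0.39, 0.65, 0.54 and 0.87). GR rank in the Dex+E2 lists had a rho with the mean ER rank of the Dex+E2 lists of 0.713 in replicate 1 and 0.610 in replicate 2, against 0.253 and 0.215 with that of the E2 lists. For GR rank in the Dex lists these values were 0.374 and 0.293 with the ER rank of the Dex+E2 lists, against 0.104 and 0.135 with that of the E2 lists. Sites of one library share its depth and its threshold, and these relations are given as descriptions.

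Seen from the calls, 191 of the 195 sites that rose (97.9%) had GR in both Dex+E2 lists, and 84 (43.1%) had it in both Dex lists, against 64.7% and 12.2% of all shared sites. Of the 152 that fell, 53 (34.9%) had GR in both Dex+E2 lists, and 2 (1.32%) had it in both Dex lists. Regions of one treatment alone went the same way, although they were not matched for ER rank. Of the 577 regions of Dex+E2 alone 53.2% had GR in both Dex lists, against 0.981% of the 1325 regions of E2 alone and 12.2% of shared sites. No GR site in any of the 4 lists was found at 1.04% of the regions of Dex+E2 alone. For the regions of E2 alone this share was 92.8%, and for shared sites 10.9%. The shares over all 8988 regions are not given here. GR sites at the ER sites that rose had a median percentile of 92.6 and 84.9 in the GR Dex+E2 lists. Those at the sites that fell stood at 42.8 and 32.6, against 69.7 and 60.2 at all shared sites. The sites that rose or fell were chosen by ER density, with which GR rank in the Dex+E2 lists was related.

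Sites that rose or fell were spread over the genome. Every chromosome with shared sites held both kinds. Sites that rose made up between 7.46% of shared sites on chromosome 10 and 20.7% on chromosome 18, where there were 29 shared sites. Sites that fell made up between 3.57% on chromosome 6 and 14.9% on chromosome 10. The median distance to the nearest other shared site was 139.5 kb for sites that rose and 146 kb for sites that fell, against 139 kb for all shared sites. Another shared site lay within 10 kb of 10.8% and 13.8% of them, against 12.5% of all. Regions of one treatment alone were farther from a shared site, at 210 kb for Dex+E2 and 198.5 kb for E2.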

How the data were processed

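ER ChIP-seq lists of 7438 Afos cells were used, 2 with Dex+E2 and 2 with E2, grouped by sample label. The GR lists of the same cells (Dex, 2; Dex+E2, 2) served only to mark sites. Per the submitters' processing notes, CASAVA 1.8 and build mm9 were used. Which aligner, site caller and calling threshold the authors used is not given in the sources used here. A deposited list holds 1 library, so replicates were not pooled. Per the file headers, a site has a highest and an average tag density, which are signal values from the authors with no stated scaling, and a z-score, a score of the authors that was not used in a comparison. The deposited p-value of each site was not used. Depth is unknown; the number of sites limits the precision.

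Sites were joined by overlap of at least 1 bp; where a region held several sites of a list, the one of highest density was used. Percentiles were taken within a list. At regions in all 4 lists, log2 density, quantile-normalised over these regions, and log2 width were fitted with limma 3.58.1 in R 4.3.3 (Dex+E2 minus E2, no covariate, threshold 0.05 after Benjamini-Hochberg adjustment). The fit was tested on simulated data, where it missed most of the sites made to change. Whole-list values were compared by two-sided exact permutation over 2 lists a treatment, and shares carry exact (Clopper-Pearson) 95% intervals. Named sites are the 4 shared sites of highest mean percentile, the 5 largest changes each way past the limma threshold whose treatments do not overlap, the 2 largest width changes each way, and the 5 of highest mean percentile for each treatment alone.

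Alternatives were equal numbers of sites, overlap of 50% of both sites, the stronger part of each list from its median density, leaving out each list, same-numbered lists as blocks, other scalings and ranks, average density, sites in at least 3 lists, and GR in both Dex+E2 lists. The sites compared and the classes were chosen with earlier results of these data known. The 3 classes of ER strength were added after the data were seen. Genes, motifs and sequences were left out because no genome or annotation in mm9 was used here. Computation used Python 3.11.15, NumPy 2.4.6, SciPy 1.17.1, pandas 2.3.3 and matplotlib 3.10.9.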

Additional observations from a re-analysis of the deposited data

Results flagged for a closer look

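A GR signal appeared at shared ER sites in cells that had been given E2 and no dexamethasone, in lists that the comparison of ER does not use. Of the 1661 shared ER sites, 399 overlapped a GR site of E2-treated 7438 Afos cells in replicate 1 and 116 in replicate 2. In untreated 7438 Afos cells, the numbers were 13 and 14. The GR lists held 490 and 146 sites with E2, against 95 and 315 sites in untreated cells, so list length did not order the overlap. Per 100 GR sites of a list, 81.4 and 79.5 shared ER sites were overlapped with E2, against 13.7 and 4.44 in untreated cells. Among the strongest 10% of shared ER sites, 127 and 76 of 167 overlapped a GR site with E2, against 2 and 1 in untreated cells. All 4 of the strongest shared sites and all 5 of the largest falls named above had such a GR site in at least 1 E2 replicate. None of the 5 largest rises had one. These rises and falls were picked by their change in ER density. Every rise stood below every fall by ER percentile in E2 replicate 1, and the ranges overlapped in replicate 2. GR sites with E2 were more frequent among the strongest shared ER sites. Whether the contrast of falls and rises goes beyond this choice of sites was not tested.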

How the results depend on the processing

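Of the alternatives to the values that answer a comparison, 56 stayed close to the main value and 23 moved. Counts and shares cannot change sign. Neither the rank differences nor the excess of the ER change at GR sites did so. The order of the treatments was not scored. With equal numbers of sites it turned for the share of sites in one treatment only, at 40.5% for Dex+E2 and 35.8% for E2. It also turned for the rank difference of these sites, given below. With a replicate block (same-numbered lists, which share only a number; r = 0.26 between the deviations of same-numbered lists, from 2 pairs) 269 sites rose and 260 fell in density, among them all 195 and 152 main calls. Regions in at least 3 lists gave 191 and 233, and percentiles in the whole list 0 and 0. Leaving out a list gave 2 to 197 rising and 0 to 191 falling sites, with the low counts without an E2 list, where the lone E2 list was taken to vary like the Dex+E2 pair. For width, quantile normalisation gave 5 wider and 3 narrower sites; leaving out a list gave 0 to 16 wider and 0 to 450 narrower. Leaving out a list moved the share of E2 sites without a Dex+E2 counterpart between 34.8% and 66.5%. The rank difference of sites of one treatment was -26.7 for Dex+E2 lists at 50% reciprocal overlap; at or above the median density it was -11.4 for Dex+E2 and -19.0 for E2; at equal numbers it was -18.9 and -17.7; leaving out a list gave -24.7 to -21.1 and -40.0 to -33.5. The excess of the ER change at GR sites was 0.46 at or above the median density and 0.48 with GR in both Dex+E2 lists. The causes of these moves were not tested, except that fewer lists and sites enter some of them. Of 104 values of the 10 named density changes, 81 kept their side of the threshold, 23 lost it and 0 reversed. These sites were chosen from the same lists without overlap between treatments, so a reversal was unlikely from the start. A value was missing for 6, since 4 of the 5 falls and 1 rise were no shared region at 50% overlap, or the region held more than 1 site of a list.

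Depth is unknown, so whether a site missing from a list lay under its threshold was not tested. Density was compared at sites in all 4 lists, and sites lost from a list are outside it.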

Other observations

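ER sites of 7438 cells without Afos came from lists made with other settings, so only presence was read, with exact binomial 95% intervals that cover counting error only. The single ER list of E2-treated 7438 cells held 92.5% (91.2 to 93.8%) of the 1661 shared ER sites of 7438 Afos cells. It held 89.2% (84.0 to 93.2%) of the sites that rose with Dex+E2 and 98.0% (94.3 to 99.6%) of those that fell. Of the regions of Dex+E2 alone it held 16.8% (13.9 to 20.1%), and of the regions of E2 alone 62.1% (59.4 to 64.7%). Among the leading regions of Dex+E2 alone named above, it held those on chromosomes 5 and 9 and not the others.

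The GR list of Dex-treated 7438 cells gave the reverse order for sites that rose against those that fell. It did so also for regions of Dex+E2 alone against those of E2 alone. It held 50.3% (43.0 to 57.5%) of the ER sites that rose with Dex+E2, 5.92% (2.74 to 10.9%) of those that fell and 18.4% (16.5 to 20.3%) of all shared sites. The regions of Dex+E2 alone were GR sites there in 61.4% of cases (57.2 to 65.3%), and those of E2 alone in 3.85% (2.88 to 5.03%). The ER classes came from 7438 Afos cells alone, and what was alike in the 2 cell lines was the order of GR presence at these regions. A difference between the lines was not tested.

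Of the shared regions, 7 were in an ER list of Dex-treated 7438 Afos cells and 8 in one of untreated cells, counting either replicate. None of the sites that rose or fell was among them.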
